A study of Mus musculus with 4 samples.

Results

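Some RNAs of doxycycline-induced mouse intestinal epithelium carried not 1 but a run of Musashi-1 (Msi1) CLIP peaks. In CLIP-seq, ultraviolet light bonds proteins to RNA in contact with them, an antibody collects one protein, and the RNA fragments that come with it are sequenced. The peak list of TRE-Msi1 replicate 2 was read once per distinct interval, which left 40361 peaks, and peaks on the same chromosome and strand were chained where the gap between them was at most 2000 bp. Of these peaks, 4615 (11.4%) lay in 926 chains of at least 4 peaks, and these are the peaks described here. Another 3630 peaks lay in 1210 chains of 3, 7660 in 3830 chains of 2, and 24456 (60.6%) had no neighbour within that distance and are called isolated. All coordinates are 1-based and of the mouse build mm9.

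The study compared 2 wild-type libraries without doxycycline with 2 TRE-Msi1 libraries after 24 h of doxycycline, from 2 mice for each group. TRE-Msi1 mice carry an Msi1 transgene switched on by doxycycline, and which cells drive that switch is not stated in the labels. All 4 libraries were made with an Msi1 antibody, and none is a background control, so peaks are positions that a program called, and Msi1 contact was not tested. Wild-type material was crypts and TRE-Msi1 material was the total epithelium, so genotype, doxycycline and the cells taken changed together and cannot be told apart.

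Msi1 belongs to a family of RNA-binding proteins that recognise short motifs with a UAG core, mostly in the 3' untranslated regions of messenger RNAs, and change how those messages are translated or how long they last. In the intestine Msi1 is known as a protein of the crypt, where stem and progenitor cells sit. One messenger RNA can hold several such motifs, and an abundant RNA gives more CLIP fragments than a rare one at equal binding. The peak lists hold neither reads nor RNA levels, so the part of RNA abundance in the results on chains was not tested. With no mm9 genome or annotation used here, stretches are named by position, neither their genes nor their sequence letters are given, and the tissue was not checked against marker genes.

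The lists differ in form. After identical intervals were merged they held 4841 and 5551 peaks in wild-type replicates 1 and 2, beside 189594 and 40361 in TRE-Msi1 replicates 1 and 2, and the depth behind each is unknown. TRE-Msi1 replicate 1 stands apart, with peaks of a median 40 bp against 74 to 75 bp and 70.8% of them on the plus strand against 50.9 to 51.4%. Each result that rests on that library is therefore given by library.

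Most chains were short. There were 479 chains of 4 peaks (51.7%), 220 of 5, 108 of 6, 54 of 7, 37 of 8 and 15 of 9. Only 13 chains were longer, 4 with 10 peaks, 6 with 11 and 3 with 12. The plus strand carried 487 chains and the minus strand 439. A chain spanned a median of 2800 bp, with an interquartile range of 1998 to 3763 bp and extremes of 442 and 11101 bp. Together the chains spanned 2800.2 kb, of which their own peaks covered 342.6 kb (12.2%). Chain length grew with peak number, from a median of 2317 bp at 4 peaks to 4510 bp at 8, while density, which the rule bounds from below, had medians between 1.3 peaks per kb at 9 peaks and 1.89 at 10.

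**Figure D1:**
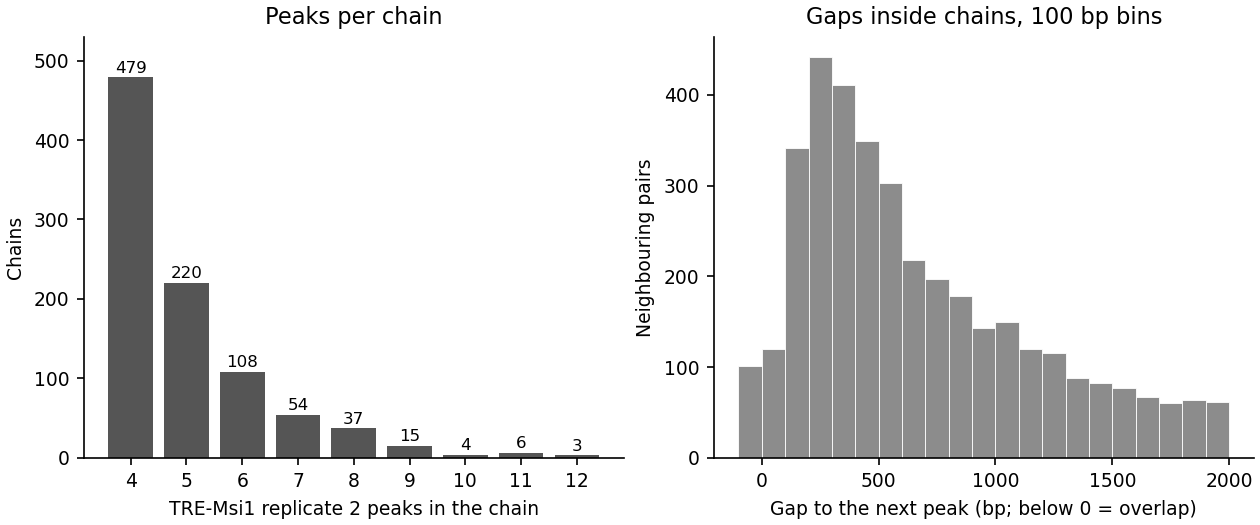
Left, number of chains (y) by the number of TRE-Msi1 replicate 2 peaks they hold (x); right, number of neighbouring pairs (y) by the gap between neighbours in bp (x, bins of 100 bp, values below 0 are overlaps). Chains of 4 are the most frequent at 479, and the gaps have a median of 524 bp and thin out towards the limit of 2000 bp that the rule sets.

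Peaks as called in a chain were mostly set apart from one another rather than tiled. The labels state no peak-calling settings, and their part in this spacing was not tested. Over the 3689 neighbouring pairs the median gap was 524 bp, with an interquartile range of 279 to 971 bp. Neighbours overlapped in 101 pairs (2.74%). Gaps of at most 200 bp made up 15.4% of pairs, gaps over 200 and up to 500 bp 32.5%, gaps over 500 and up to 1000 bp 28.1% and gaps over 1500 bp 8.92%. Over the whole list 6640 neighbouring pairs were at most 1000 bp apart, and each further step of 1000 bp held fewer, at 3299, 2303 and 1787 pairs. The limit of 2000 bp thus falls on a slope without a break. At 266 chains the widest gap exceeded 1500 bp, and at 353 no gap exceeded 1000 bp. On either side of the size threshold, chains of 3 and of 4 peaks had median lengths of 1805 and 2317 bp, median scores of 7 and 8, and 1.60 and 1.64 peaks per kb.

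Chains were spread over the genome. Chromosome 1 had the most, at 78, followed by chromosome 11 with 69 and chromosome 3 with 65. Among the numbered and X chromosomes the share of peaks that were in chains ran from 7.57% on chromosome 7 (95% Wilson interval 6.52 to 8.78%) to 14.7% on chromosome 19 (13.0 to 16.7%). The mitochondrial genome was denser, with 13 of its 15 peaks in 2 chains, 1 on each strand. The Y chromosome and unplaced sequences held none. Wilson intervals treat peaks as independent, which peaks of one chain are not, and cover counting error only.

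Peaks in chains scored higher than isolated peaks in the list that both come from. The score is the authors' own, its unit is not stated, and it ranks peaks within a list only. The median was 9 in chains (interquartile range 7 to 13) against 6 (5 to 8) for isolated peaks, with 7 in chains of 2 and 7 in chains of 3. A score of at least 10 was held by 44.6% of peaks in chains and 13.3% of isolated peaks, and a score of at least 20 by 12.2% and 1.62%. These values describe the list the chains were drawn from and carry no test.

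Within a chain the highest score of a chain was a median of 2.5 times its lowest (interquartile range 2.0 to 3.6, highest 12.6), and 230 chains (24.8%) stayed under 2-fold. In the 822 chains with a single highest peak, it was the first from the 5' end in 19.7%, the last in 18.1% and an inner one in 62.2%, beside 20.0%, 20.0% and 60.0% of the peaks of those chains that hold these places. The mean score was higher on the 5' side of the middle in 488 chains and on the 3' side in 403. The highest peak was thus at an end about as often as the share of end peaks.

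The chains with the most peaks, called the longest here whatever their span, differed widely in level and in what the other libraries placed there. The rule for named stretches took the 10 chains with the most peaks, then 3 sets of 5 chosen by the peaks of the other libraries, so counts in those sets describe the choice. A chain of 12 lay on the plus strand of chromosome X at 12861369 to 12870424. Its scores ran from 6 to 47 (median 23.5), and it held 10 peaks of TRE-Msi1 replicate 1, 5 of wild-type replicate 1 and 1 of wild-type replicate 2. The replicate 1 peaks of both groups crowded into its 3' part, where 9 of the 10 began at least 6041 bp and 4 of the 5 at least 7294 bp from the 5' end.

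A second chain of 12 scored 14 to 32 and lay on chromosome 11 (minus, 6368169 to 6374849). It held 6 TRE-Msi1 replicate 1 peaks, 2 of wild-type replicate 1 and 0 of wild-type replicate 2. The third chain of 12, on the plus strand of chromosome 1 at 133920623 to 133930048, scored 7 to 38 and had 1, 0 and 2 peaks of these libraries. The highest scores among the 10 longest chains belonged to chromosome 19 (minus, 5796075 to 5802382), where 11 peaks scored between 70 and 161 (median 104). TRE-Msi1 replicate 1 had 3 peaks there, and the wild-type lists had 3 and 5. A chain of 11 on chromosome 1 (minus, 64777191 to 64781318) scored 25 to 76 and held 8 peaks of TRE-Msi1 replicate 1, 7 of wild-type replicate 1 and none of wild-type replicate 2. The wild-type libraries thus differed from each other in the same stretch.

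The other 5 of the 10 longest lay on chromosome 7 (minus, 118214464 to 118222009), chromosome 5 (minus, 115593021 to 115598071), chromosome 6 (plus, 67234209 to 67242279), chromosome 18 (plus, 36448702 to 36454773) and chromosome 1 (minus, 88244957 to 88249795). They held 11, 11, 11, 11 and 10 peaks with median scores of 22, 19, 10, 8 and 19.5. Each of these 5 held 4 to 9 peaks of TRE-Msi1 replicate 1, 1 to 3 of wild-type replicate 1 and 1 or 2 of wild-type replicate 2. With gaps limited to 1000 bp, 20 of the 22 distinct named chains still held at least 4 peaks, and 12 changed in peak number by over 1.5 times. With gaps of up to 5000 bp all 22 did, and 5 changed that much. When only peaks scored at least 10 were chained, 15 of the 22 still held at least 4, and 9 changed that much. The chromosome 18 chain then fell from 11 peaks to 1.

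**Figure D2:**
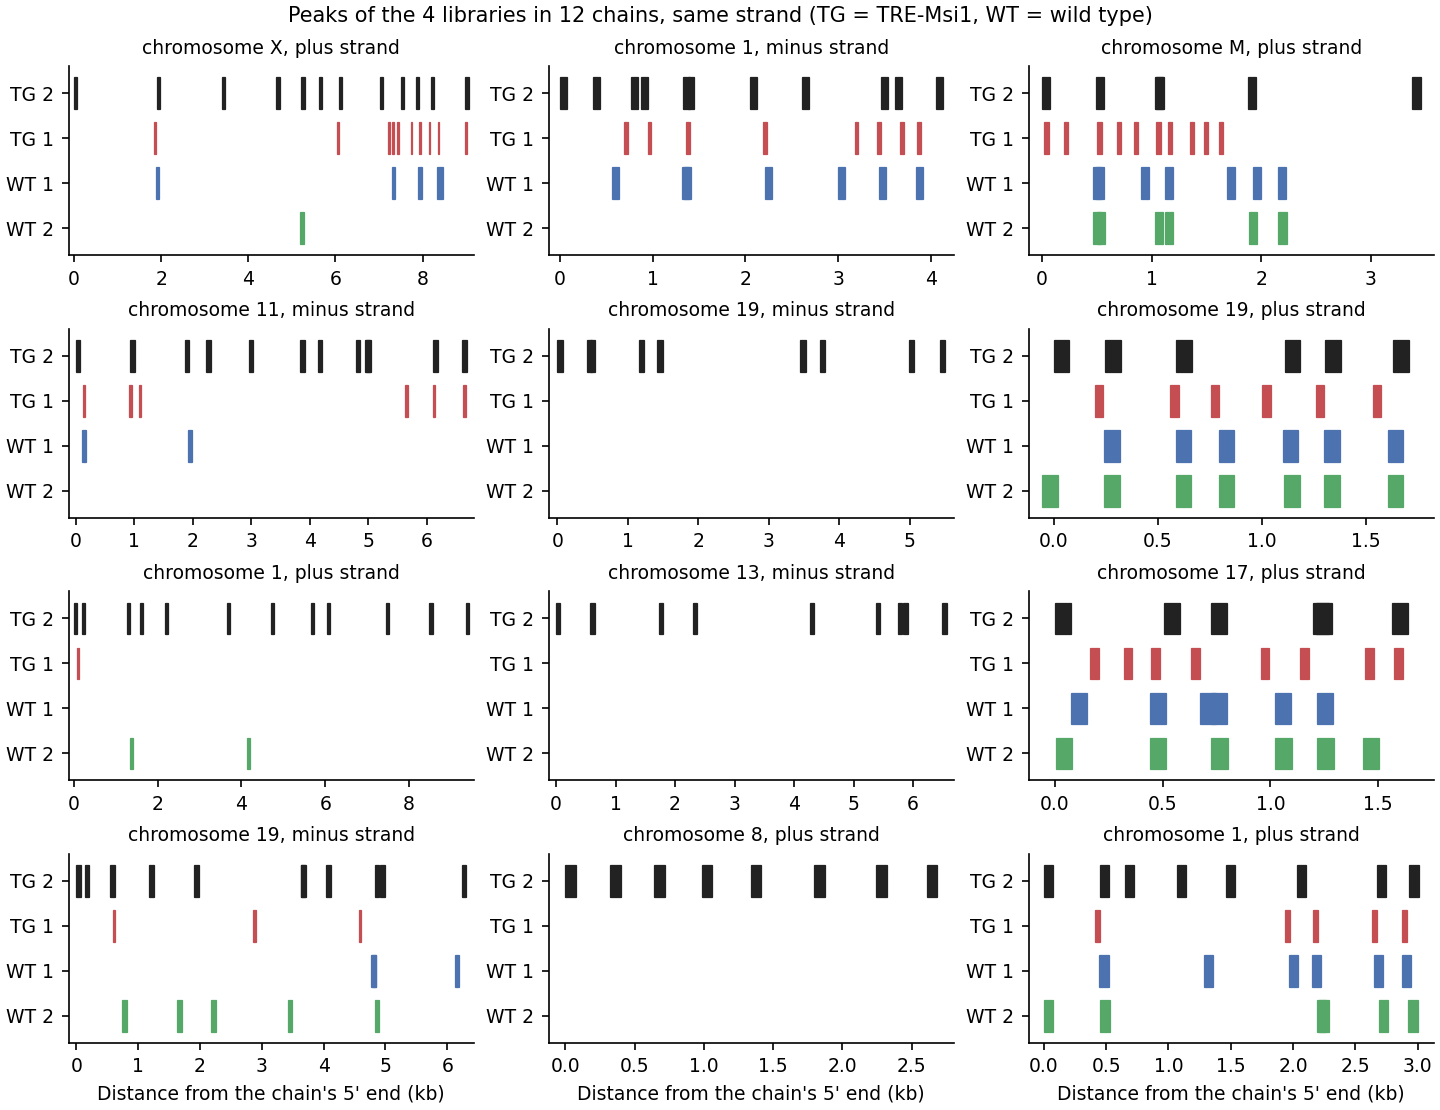
Peaks (bars, drawn to scale) of the 4 libraries on the same strand in 12 chains, by distance from the chain's 5' end in kb (x); left column and top of the middle column, the 5 longest chains; rest of the middle column, 3 long chains without a peak of another library; right column, the 4 chains with the most wild-type peaks. Longest here means with the most peaks. In the right column wild-type peaks stand under most TRE-Msi1 replicate 2 peaks, as at 6 of 6 peaks on the plus strand of chromosome 19 for wild-type replicate 2.

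How far the other libraries, which played no part in the chaining, placed peaks in the same stretches was then counted. In 722 of the 926 chains (78.0%, 75.2 to 80.5%) at least 1 other library had a peak on the same strand inside the span. TRE-Msi1 replicate 1 had one in 673 chains (72.7%, 69.7 to 75.5%), wild-type replicate 1 in 410 (44.3%, 41.1 to 47.5%) and wild-type replicate 2 in 242 (26.1%, 23.4 to 29.1%). Either wild-type library had one in 492 (53.1%, 49.9 to 56.3%). Over all 30422 chains of any size, single peaks included, the shares were 11.8% for any other library, 8.86% for TRE-Msi1 replicate 1, 5.40% for wild-type replicate 1, 3.37% for wild-type replicate 2 and 7.30% for either wild-type library. A longer span has more room for a peak, and the part of span length in these shares was not tested. For either wild-type library the share went from 28.9% at 3 peaks to 42.0% at 4, 60.0% at 5, 69.8% at 6 or 7 and 70.8% at 8 or more. Per kb of span these chains held 0.261, 0.332, 0.426, 0.500 and 0.369 wild-type peaks. Chains of 2 had one in 13.9% and held 0.179 per kb. Single isolated peaks, whose span is the peak alone (median 75 bp), had one in 3.46% but held 0.538 per kb. Per kb of span the isolated peaks were thus above each of these chain classes.

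By number, the chains held 2477 peaks of TRE-Msi1 replicate 1 (mean 2.67 per chain, highest 14), 765 of wild-type replicate 1 (0.826, highest 7) and 342 of wild-type replicate 2 (0.369, highest 7). That is 1.31% of the TRE-Msi1 replicate 1 list but 15.8% and 6.16% of the wild-type lists. The wild-type lists thus had a larger part of their peaks in these stretches than the other induced library. Those lists are far shorter, at 4841 and 5551 peaks against 189594, and the part of list length was not tested. A test of TRE-Msi1 against wild type has no TRE-Msi1 replicate here, since the other one defines the chains.

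The strand of the chain was kept. A peak on the opposite strand inside the span was found in 16 chains (1.73%, 1.07 to 2.79%) for TRE-Msi1 replicate 1, in 1 for wild-type replicate 1 and in 3 (0.324%) for wild-type replicate 2, beside 0.540% for TRE-Msi1 replicate 2 itself. Of the TRE-Msi1 replicate 1 peaks inside chains 55.4% were on the plus strand. Only peaks on the chain's own strand count as inside, and 52.6% of chains were on the plus strand. That share is therefore tied to the strands of the chains. Of the TRE-Msi1 replicate 1 peaks that overlapped an isolated peak 41.4% were on the plus strand. TRE-Msi1 replicate 1 had a peak in 75.2% of plus-strand chains and 69.9% of those on the minus strand.

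The libraries fell together in part of the chains. All 3 had a peak in 158 chains (17.1%), TRE-Msi1 replicate 1 with wild-type replicate 1 alone in 229, with wild-type replicate 2 alone in 56, and TRE-Msi1 replicate 1 by itself in 230. Only 49 chains had a wild-type peak and none of TRE-Msi1 replicate 1, namely 21 with wild-type replicate 1, 26 with wild-type replicate 2 and 2 with both. In 204 chains (22.0%) no other library had a peak, and in 434 no wild-type library had one.

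Chains found in more libraries had higher scores in the library that defined them. The median of the highest score per chain was 25 where all 3 other libraries had a peak and 10 where none had. With the chains cut by that highest score into 4 classes of 231 or 232 chains, either wild-type library had a peak in 28.0% of the lowest class (scores 6 to 10), in 40.7% and 62.3% of the classes between and in 81.5% of the highest (scores 24 to 513). For TRE-Msi1 replicate 1 the shares were 47.4%, 66.7%, 83.5% and 93.1%. Median chain length was 2889 bp in the lowest class and 2659 bp in the highest. The highest score also rose with peak number, from a median of 12 in chains of 4 to 25 at 8 or more. The part of peak number in these shares was not tested.

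Peak by peak, peaks in chains were overlapped by another library more often than isolated peaks in each of the 3 libraries. An overlap means at least 1 bp on the same strand. TRE-Msi1 replicate 1 overlapped 723 of the 4615 peaks in chains (15.7%, 14.6 to 16.7%) and 2.90% (2.70 to 3.12%) of isolated peaks, beside 5.57% of the whole list. Wild-type replicate 1 overlapped 401 (8.69%, 7.91 to 9.54%) against 2.02% of isolated peaks, beside 3.71% of the whole list. Wild-type replicate 2 overlapped 172 (3.73%, 3.22 to 4.31%) against 2.00%, beside 2.13%. The mean difference over the 3 libraries was 7.06 percentage points ± 5.53 (SD, n = 3), higher in chains in 3 of 3 libraries. These libraries mix TRE-Msi1 and wild-type material and are not replicates of 1 condition, so the SD describes only their spread. A two-sided exact sign-flip permutation test over the libraries gave p = 0.25, the smallest value that 3 libraries allow. Without TRE-Msi1 replicate 1 the mean of the wild-type libraries was 4.20 percentage points. Peaks in chains of 2 and 3 lay between for TRE-Msi1 replicate 1, at 5.97% and 9.89%, while in wild-type replicate 2 those in chains of 2 were below isolated peaks, at 1.55%.

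Within score classes the mean difference was smaller, and for wild-type replicate 2 the highest class turned its sign. Among peaks scored 6 to 9, TRE-Msi1 replicate 1 overlapped 11.7% in chains (10.4 to 13.2%) and 2.19% of isolated peaks (1.93 to 2.49%), and wild-type replicate 1 overlapped 4.65% and 1.52%. Among peaks scored 10 to 19 these were 18.6% and 6.42%, and 9.83% and 5.06%. At scores of 20 or more the shares came together, at 30.5% (26.8 to 34.4%) and 28.5% (24.2 to 33.1%) for TRE-Msi1 replicate 1 while wild-type replicate 1 gave 25.7% (22.3 to 29.5%) and 27.7% (23.5 to 32.3%).

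Wild-type replicate 2 differed from this. It overlapped 1.21% of peaks in chains and 1.23% of isolated peaks at scores under 6, 2.02% and 1.3% at 6 to 9, and 4.01% of both at 10 to 19. At 20 or more it overlapped 11.5% in chains (9.15 to 14.4%) against 26.4% of isolated peaks (22.4 to 31%). That class holds 564 of the 4615 chain peaks and was not tested. Averaged over the 4 score classes with equal weight the difference was 7.26 percentage points for TRE-Msi1 replicate 1, and the wild-type libraries gave 2.03 and -3.55. The mean over the libraries was then 1.91 (two-sided exact sign-flip permutation test, p = 0.75).

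**Figure D3:**
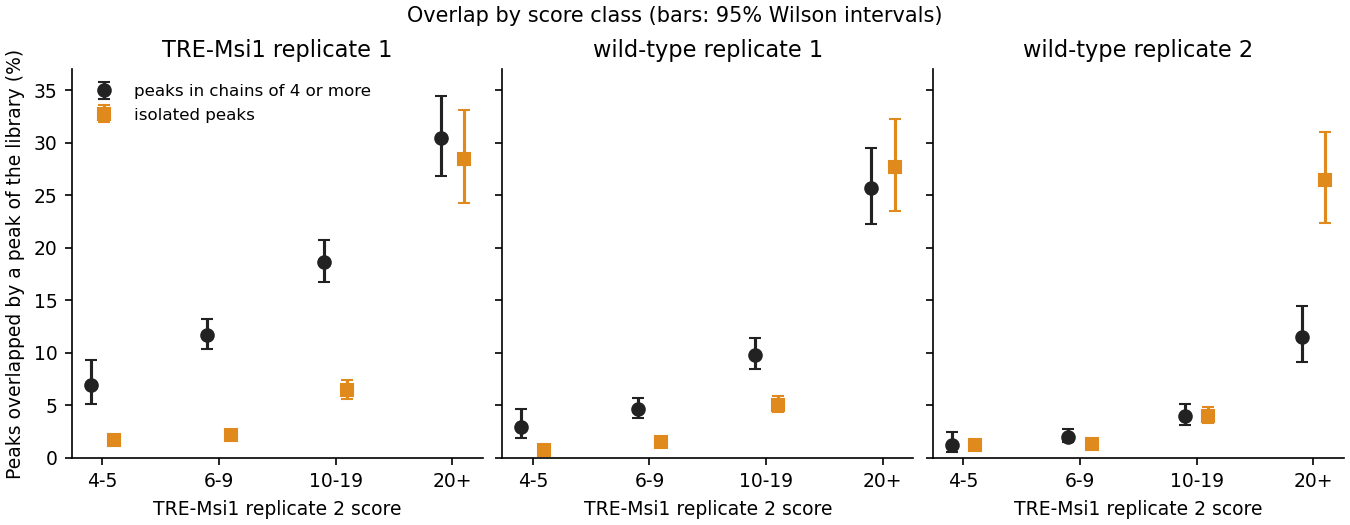
Percent of TRE-Msi1 replicate 2 peaks overlapped on the same strand by a peak of each other library (y), by score class (x), for peaks in chains (black circles) and isolated peaks (orange squares), with 95% Wilson intervals. Peaks in chains are above isolated ones below a score of 20 for TRE-Msi1 replicate 1 and wild-type replicate 1. At 20 or more peaks in chains are below isolated ones for wild-type replicate 2 (11.5% against 26.4%). They are slightly below for wild-type replicate 1 (25.7% against 27.7%), where the intervals overlap.

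Where another library had a peak in a chain, it often did not sit on a chain peak. Of the TRE-Msi1 replicate 1 peaks inside chains 28.4% overlapped a chain peak, of the wild-type replicate 1 peaks 52.3% and of the wild-type replicate 2 peaks 48.8%. Chain peaks cover 12.2% of the span. By centres, wild-type replicate 1 had 0.735 peaks per kb on chain peaks, 0.201 per kb between them and 0.0451 per kb in the 2 kb flanks outside the chains. Wild-type replicate 2 had 0.306, 0.0936 and 0.0313 per kb, and TRE-Msi1 replicate 1 had 1.39, 0.796 and 0.25. Isolated peaks themselves held 0.190, 0.218 and 0.224 per kb in these libraries, and their flanks 0.0114, 0.00879 and 0.0758. The density on isolated peaks was thus 16.7, 24.8 and 2.96 times that of their flanks. On chain peaks it was 3.65, 3.27 and 1.74 times that between them, so a higher density on peaks was not particular to chains. The stretches between chain peaks thus held 2.99 to 4.47 times the density of the chains' own flanks, and those flanks 3.30 to 3.97 times the density of the flanks of isolated peaks.

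**Figure D4:**
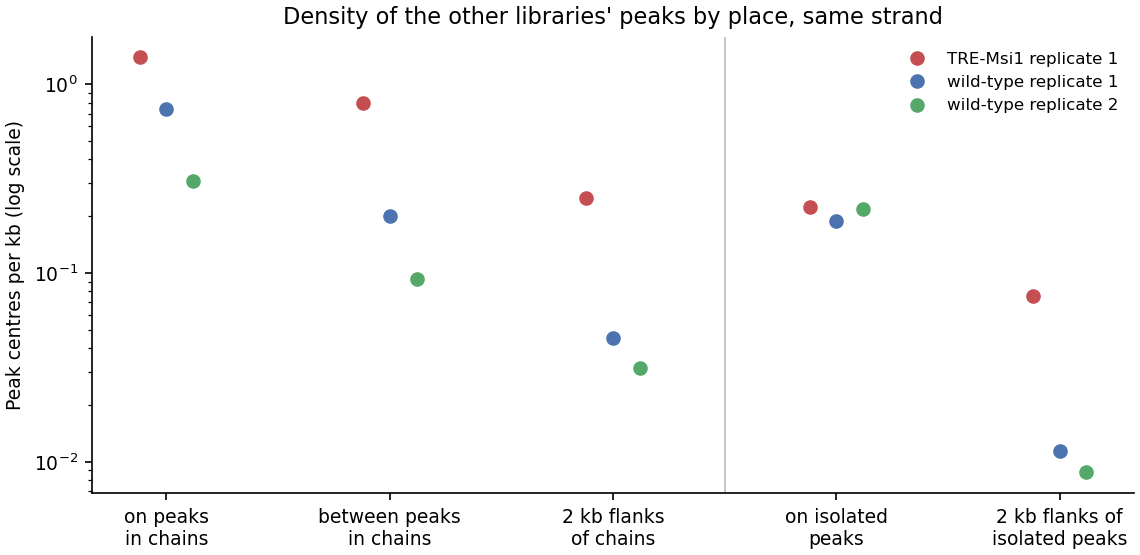
Peak centres per kb on the same strand (y, log scale) for each of the other 3 libraries, on and between the peaks of chains, in the 2 kb flanks of chains, on isolated peaks and in their 2 kb flanks (x); each point is 1 library, with no error bar. The order on, between, flank holds in each library, from 0.735 through 0.201 to 0.0451 per kb for wild-type replicate 1. Isolated peaks also stand above their flanks in each library, at 0.190 against 0.0114 per kb for wild-type replicate 1.

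Within 500 bp on the same strand, TRE-Msi1 replicate 1 had a peak for 52.5% of peaks in chains and 10.1% of isolated peaks (19% of the whole list). Wild-type replicate 1 had one for 26.9% and 3.6% (8.98%), and wild-type replicate 2 for 13.1% and 3.05% (4.86%). Windows of neighbouring chain peaks overlap, so 1 peak of another library can count for several. At this distance wild-type replicate 2 shares were 9.50% in chains and 2.32% for isolated peaks at scores of 6 to 9. At 20 or more they were 30.0% (26.3 to 33.9%) and 30.7% (26.4 to 35.4%). In that highest class the other libraries stayed apart. TRE-Msi1 replicate 1 had 76.8% in chains and 53.7% for isolated peaks, and wild-type replicate 1 had 53.9% and 35.5%. On the opposite strand, TRE-Msi1 replicate 1 and wild-type replicate 1 overlapped 0 of the 4615 peaks in chains, which allows a share of up to 0.0650% by the limit of 3 counts and 0.0832% by the Wilson interval, and wild-type replicate 2 overlapped 5 (0.108%). Over the whole list these opposite-strand shares were 0.114%, 0.0198% and 0.0273%.

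The distance between the centres of overlapping pairs differed by library. Between wild-type replicate 2 and isolated peaks the centres lay a median of 4 bp apart, and 59.9% of 491 pairs were within 10 bp. In chains the median was 25 bp, and 30.3% of 175 pairs were within 10 bp. Wild-type replicate 1 gave medians of 22.5 bp for isolated peaks and 27.5 bp in chains. TRE-Msi1 replicate 1 went the other way, with medians of 33.5 bp for isolated peaks and 27.5 bp in chains, and 12.9% and 17.8% of pairs within 10 bp. Its peaks leaned to the 5' side of TRE-Msi1 replicate 2 peaks. In the 100 bp upstream of a chain peak's centre there were 89.9 and 87.8 of their centres per 1000 chain peaks and 50 bp, against 52.2 and 47.9 in the 100 bp downstream. Isolated peaks showed the same lean, at 18.4 and 17.8 upstream against 6.79 and 5.93 downstream. Moving the TRE-Msi1 replicate 1 peaks 50 bp downstream, an alternative chosen after this was seen, gave overlaps of 19.3% in chains and 3.86% for isolated peaks. With that list reduced to its 40361 highest-scored peaks, also chosen after the data were seen, the overlaps were 6.09% and 0.883%.

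**Figure D5:**
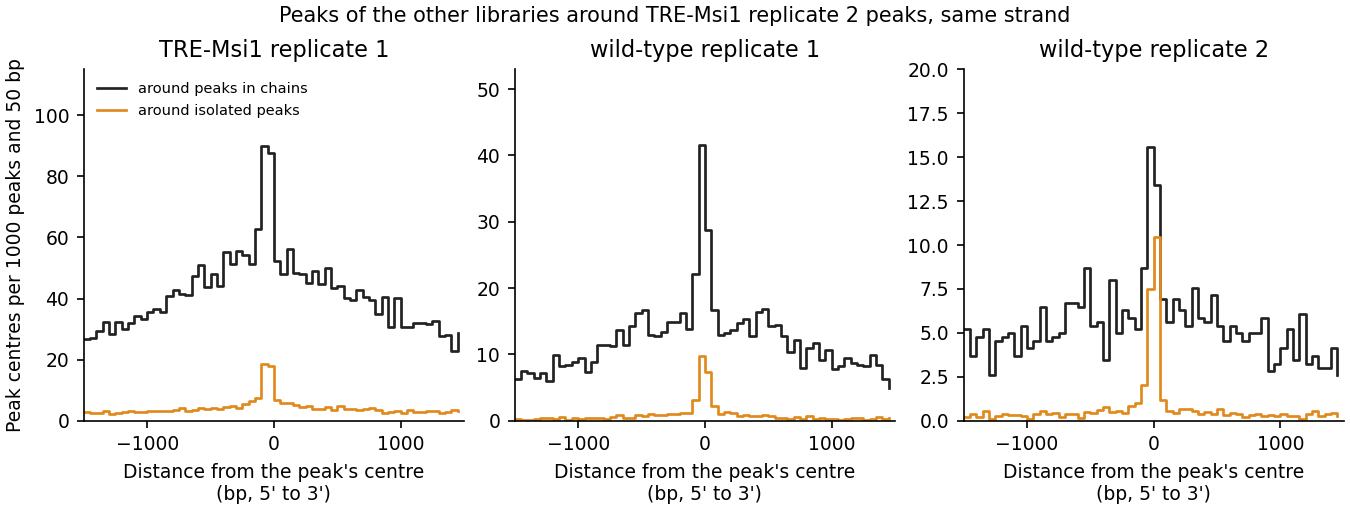
Centres of the peaks of each other library per 1000 TRE-Msi1 replicate 2 peaks and 50 bp (y; scales differ between panels) by distance from that peak's centre in bp, 5' to 3' (x), around peaks in chains (black) and isolated peaks (orange). The wild-type curves have a narrow summit at the centre, while TRE-Msi1 replicate 1 is highest on the 5' side (89.9 against 52.2 in chains); around chain peaks the summits stand on a broad shoulder.

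Chain peaks with the highest score were overlapped somewhat more often than the others. Wild-type replicate 1 overlapped 12% of the 1039 peaks with the highest score of their chain, ties included, and 7.72% of the 3576 others. These shares were 18.0% and 15.0% for TRE-Msi1 replicate 1 and 4.23% and 3.58% for wild-type replicate 2. At least 2 peaks of one chain were met in 193 chains by TRE-Msi1 replicate 1, in 88 by wild-type replicate 1 and in 22 by wild-type replicate 2.

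The scores of the other lists can be read without the rule having used them. In TRE-Msi1 replicate 1 the peaks inside chains had a median score of 2.1, at a median percentile of 66.2 of their own list, against 1.8 outside. In wild-type replicate 2 the median was 8 inside chains, at percentile 66.5, against 6 outside. Peaks of wild-type replicate 2 that overlapped a chain peak reached percentile 73.3, those inside chains but between the chain peaks 58.8, and those that overlapped an isolated peak 58.8. The 10% of its list with the highest scores held 28.1% of the peaks on chain peaks and 29.7% of those on isolated peaks, and for TRE-Msi1 replicate 1 these shares were 19% and 21.8%. Wild-type replicate 1 has a score of 0 throughout and cannot be read this way.

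The 5 chains with the most wild-type peaks held 6 to 11 peaks of TRE-Msi1 replicate 2. The plus strand of the mitochondrial genome at 363 to 3818 held 6 peaks of TRE-Msi1 replicate 2, scored 147 to 513, with 10 of TRE-Msi1 replicate 1, 7 of wild-type replicate 1 and 6 of wild-type replicate 2. The plus strand of chromosome 19 at 8798839 to 8800546 also had 6, scored 57, 33, 32, 77, 45 and 75 from the 5' end. Wild-type replicate 2 overlapped 6 of the 6 and wild-type replicate 1 overlapped 5, while TRE-Msi1 replicate 1, with 6 peaks in the span, overlapped 1. Chromosome 17 at 39983516 to 39985152 (plus) had the same form, with 6 peaks scored 157 to 292, of which wild-type replicates 1 and 2 each overlapped 5 and TRE-Msi1 replicate 1 overlapped 1 with 8 peaks in the span. On chromosome 1 at 162965586 to 162968595 (plus) 8 peaks scored 7 to 37, and each wild-type library overlapped 4 of them. The fifth was the high-scoring chromosome 19 stretch at 5796075, where each of the other libraries overlapped 1 of 11. These 5 were picked for their wild-type peaks, and TRE-Msi1 replicate 1 peaks are narrower and lean to the 5' side, so the overlap counts of the libraries are not compared.

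The 5 longest chains without any wild-type peak held 9 peaks each, with median scores between 8 and 10. They lay on chromosome 3 (plus, 33703981 to 33714399), chromosome 19 (minus, 5825594 to 5831097), chromosome 13 (minus, 32421683 to 32428244) and chromosome 15 (minus, 103021861 to 103029132, and plus, 80760303 to 80771403). TRE-Msi1 replicate 1 had 2, 0, 0, 3 and 3 peaks in them. The last is also the longest span of all chains, at 11101 bp.

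The 5 longest chains with no peak of any other library began with the chromosome 19 and 13 stretches just named. The third, on the plus strand of chromosome 8 at 82198655 to 82201339, held 8 peaks scored 32, 20, 10, 21, 32, 11, 37 and 15 from the 5' end. Its gaps ran only from 243 to 381 bp (median 279). Its median score of 20.5 was above the median of 7 over the median scores of the 204 chains without another library. The remaining 2, on chromosome 6 (minus, 78400825 to 78405564) and chromosome 14 (minus, 60840863 to 60846837), held 8 peaks each with median scores of 9 and 6.5.

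The same chaining applied to the wild-type lists found few stretches, and many of them were the same ones. Wild-type replicate 1 had 67 chains of at least 4 peaks (311 peaks, 6.42% of its list), and 44 of the 67 (65.7%, 53.7 to 75.9%) overlapped a TRE-Msi1 replicate 2 chain on the strand. Wild-type replicate 2 had 21 chains (1.84% of its list), of which 10 did so. Seen from the induced library, 4.75% and 1.08% of the 926 chains were met by a wild-type chain. The wild-type lists formed only 67 and 21 chains, which limits these shares. Those lists hold 4841 and 5551 peaks against 40361 in TRE-Msi1 replicate 2, and the part of list length was not tested. TRE-Msi1 replicate 1, whose list is far longer, met 388 of the 926 chains (41.9%) with its own chains. Reduced to its 40361 highest-scored peaks it met 105 (11.3%).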

How the data were processed

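Msi1 CLIP-seq peak lists of 4 libraries were analysed, grouped by the sample titles. Per the labels' protocols, crosslinking used 2 ultraviolet pulses (265 nm, 400 mJ per cm2), and RNA came from a membrane band at about 50 kD. Per the submitters' processing notes, Bowtie, HOMER and mm9 were used. The labels state no versions, settings or roles. The deposited lists give each peak's position, strand and the authors' score, whose unit is not stated.

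Members and lists were chosen with earlier results of these data known. Identical intervals were merged in each list. Named stretches were the 10 longest chains, the 5 longest without a wild-type peak, the 5 longest without any other library's peak and the 5 with most wild-type peaks (ties by summed score). Longest means with the most TRE-Msi1 replicate 2 peaks, not the widest span. Shares carry 95% Wilson intervals. In simulated lists 13292 of 13292 peaks received their true chain size, and the overlapped shares planted in chain and isolated peaks (20.3% and 4.94%) came back as 20.3% and 4.94%. A bedtools (2.31.1) recount differed for 0 peaks. Planned sequence and gene-list results were not computed, since no mm9 genome was used here. Alternatives are in the closing section. Work was done in Python 3.11.15 with pandas 2.3.3, numpy 2.4.6 and scipy 1.17.1, and plots in matplotlib 3.10.9.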

Additional observations from a re-analysis of the deposited data

Results flagged for a closer look

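TRE-Msi1 replicate 1 had a peak on the strand opposite to the chain in 1.73% of chains (16 of 926, 95% Wilson interval 1.07 to 2.79%), above both wild-type libraries (0.108% and 0.324%) in data that the comparisons of chains did not use. The minus-strand chain of the mitochondrial genome at 11358 to 16040 held 3 of the 18 such peaks of TRE-Msi1 replicate 1, 5 of the 8 of wild-type replicate 2 and the 1 of wild-type replicate 1. The TRE-Msi1 replicate 1 list is also far longer than the wild-type lists, and its part in this share was not tested.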

How the results depend on the processing

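The number of chains and of their peaks followed the rule: 507 chains with 2414 peaks at a gap of 1000 bp, 1845 with 10122 at 5000 bp, 2136 with 8245 at a minimum of 3 peaks, 227 with 1599 at 6, and 184 with 951 when only peaks scored at least 10 were chained. The share of chains with a wild-type peak was 60.0%, 47.7%, 39.4%, 70.0% and 82.1% in these settings, 35.1% when the wild-type peak had to overlap a chain peak, and 0.324% on the opposite strand. It ranged from 26.1% to 44.3% when a wild-type library was left out. The mean share of chain peaks overlapped, 9.36%, was 4.49% under a reciprocal overlap of 50%, 17.5% with scores of at least 10 and 30.8% within 500 bp, and 6.21% to 12.2% when a library was left out. The difference between chain and isolated peaks kept its direction in 19 of 19 alternatives, at 1.91 to 25.2 percentage points, and from 4.20 to 9.72 when a library was left out. Of these alternatives 6 were chosen after seeing the data (3 that changed the TRE-Msi1 replicate 1 list, each strand alone, and the set without the 5 chains richest in wild-type peaks), as were the values by library. The lowest value, 1.91, was the mean within score classes, where TRE-Msi1 replicate 1 gave 7.26 and wild-type replicate 1 gave 2.03. For wild-type replicate 2 alone the difference turned to -3.55 there, through the class of 20 or more. The positive mean within classes thus rested on TRE-Msi1 replicate 1, and no alternative left out a library within classes. In these designs no sign-flip p could pass 0.05. No paired analysis was possible because TRE-Msi1 replicate 2 defines the chains, so the groups compared share fewer than 2 replicate numbers. Read depth is unknown, and with it what a missing peak means.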

Other observations

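TRE-Msi1 replicate 1 formed far more chains by itself than the 926 of TRE-Msi1 replicate 2, which limits the share that could overlap one. Of those 926 chains it met 388 (41.9%). Under the same rule the TRE-Msi1 replicate 1 list gave 4530 chains with 29727 peaks (15.7% of the list), the largest with 51 peaks. Of the 4530, 389 (8.59%, 7.81 to 9.44%) overlapped a chain of TRE-Msi1 replicate 2. Of the 4530 chains 55.7% were on the plus strand. When the list was reduced to its 40361 highest-scored peaks, the length of the TRE-Msi1 replicate 2 list, it gave 2060 chains with 34.8% of its peaks, and 105 (5.10%) overlapped a chain of TRE-Msi1 replicate 2.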
